A study of Mus musculus with 8 samples.

Results

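Cldn2, Cldn4 and Celsr1 encode proteins of the contacts between epithelial cells, and each was read at 1 named probe in the livers of Gpx3 transgenic and wildtype mice. The 3 probes are those whose identifiers carry, after the prefix scl0 or scl00, the NCBI Gene ID of one of these genes: scl0012738.2_49-S for Cldn2, scl012740.2_183-S for Cldn4 and scl012614.2_32-S for Celsr1. They are 3 of 24048 probes on the array, and 3 of 7409 genes with a named probe. The genes were chosen with their transgenic and wildtype values in these livers already known, so the values below describe them and carry no test.

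The transgenic mice were 4 males labelled as carrying Gpx3, and their controls were 4 males labelled B6/DBA wildtype. All 8 were 23 weeks old, had been fed a 4% fat chow until 11 weeks of age, and were fed a 6% fat chow after that. Gpx3 encodes a secreted glutathione peroxidase that contains selenium. The promoter that drives the transgene, its founder line and whether transgenic and wildtype mice were littermates are not given in the sources used here. The sample titles carry a code of unstated meaning, made of a number and the letters after it. Transgenic animals 1, 2 and 3 have one number in common, the remaining transgenic animal has its own, and all 4 wildtype animals have yet another. No number occurs in both genotypes, so whatever it marks cannot be told apart from genotype. The letters RC, LC and BC occur in both genotypes, and RW only in wildtype animal 4.

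Hepatocytes are polarised cells whose tight junctions seal the bile canaliculus from the blood side, and the claudins are the membrane proteins that form the strands of those junctions. Claudin-2 forms a pore that lets small cations and water pass between cells, and in mouse liver it lies at hepatocyte junctions. Claudin-4 tightens the barrier of many epithelia and in liver is known from bile duct cells. Celsr1 is an atypical cadherin of planar cell polarity, the pathway that aligns cells within the plane of an epithelial sheet.

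The RefSeq table of promoter windows, build GRCm38.p6, holds windows for both claudin genes, each running from 250 bases before the annotated start to 50 bases after it. They are shown because the groups were separate at the Cldn2 probe and overlapped at the Cldn4 probe, which does not show that the claudins differed from each other. Capitals mark matches to 4 short motifs, searched on both strands and picked after the windows had been read. The first is TATAAA, the TATA box. The second is CAGGTG, an E-box bound by Snail factors. The third is GGGCGG, the GC box. The last is CTTTGA, the core bound by TCF/LEF factors. No match overlapped another. The Cldn2 window lies at chrX:139800558-139800857 on the plus strand, and the Cldn4 window at chr5:134946885-134947184 on the minus strand.
Cldn2: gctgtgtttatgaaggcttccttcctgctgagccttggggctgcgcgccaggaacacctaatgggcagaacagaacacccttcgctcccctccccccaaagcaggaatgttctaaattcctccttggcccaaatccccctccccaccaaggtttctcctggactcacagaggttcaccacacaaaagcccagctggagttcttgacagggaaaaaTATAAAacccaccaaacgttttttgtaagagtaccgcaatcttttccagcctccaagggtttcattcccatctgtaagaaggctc
Cldn4: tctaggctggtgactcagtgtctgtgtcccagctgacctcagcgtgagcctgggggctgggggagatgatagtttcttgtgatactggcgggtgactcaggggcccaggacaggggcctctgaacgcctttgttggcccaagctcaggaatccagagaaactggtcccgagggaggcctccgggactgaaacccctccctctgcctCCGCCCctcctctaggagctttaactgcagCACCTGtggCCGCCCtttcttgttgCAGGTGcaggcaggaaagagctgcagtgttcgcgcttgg
The Cldn2 window had 1 TATAAA match, upstream of the start, and no match to the other motifs. The Cldn4 window had 2 CAGGTG matches and 2 GGGCGG matches, and neither TATAAA nor CTTTGA. Among all 32851 windows of this length, 13.6% held TATAAA, 20.2% CAGGTG, 35.7% GGGCGG and 16% CTTTGA. The GC content was 51.3% in the Cldn2 and 61% in the Cldn4 window, against a median of 52.7% over all windows. These matches describe the letters and are not evidence of binding.

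Signals are background-subtracted intensity units on a linear scale, with 1 array per liver. Median signal per array lay between 11 and 14.2 units, and between 33.1% and 35.3% of probes read below 0. Across tested probes, Pearson correlations of log2 signal were 0.978 to 0.986 between transgenic livers and 0.976 to 0.986 between wildtype livers. Between a transgenic and a wildtype liver they were 0.9698 to 0.9865. Gpx3 had no named probe, so its level does not check the labels. The number of arrays limits the precision of every value below, and the labels name no batch beyond the title codes.

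Cldn2, the pore-forming claudin, had a lower signal in every transgenic liver than in any wildtype liver. It read 1152.7, 1350.0, 1163.9 and 1433.5 units in transgenic animals 1 to 4, against 1727.7, 1732.2, 1958.0 and 1664.3 units in wildtype animals 1 to 4. The groups did not overlap, with a gap of 231 units between the highest transgenic and the lowest wildtype liver. The transgenic mean was 1275 ± 139 units, against 1771 ± 129 units for wildtype (SD, n = 4 each). On the log2 scale, transgenic minus wildtype was -0.48 ± 0.10 (SE), which is a signal 28.2% lower in transgenic livers. Transgenic animals 1 and 3 lay close together below animals 2 and 4, and wildtype animal 3 was the highest of all.

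Celsr1, the planar polarity cadherin, showed the same order of groups at a much dimmer probe. It read 63.6, 70.0, 65.8 and 76.9 units in transgenic animals 1 to 4, against 131.0, 129.2, 113.7 and 95.4 units in wildtype animals 1 to 4. These groups did not overlap either, and the gap was 18.5 units. Celsr1 had a mean of 69.1 ± 5.85 units in the transgenic livers, against 117 ± 16.6 units in the wildtype livers (SD, n = 4 each). The log2 difference, transgenic minus wildtype, was -0.76 ± 0.12 (SE), a signal 40.8% lower in transgenic livers. Within the transgenic group Celsr1 and Cldn2 ranked the animals alike, with animal 1 lowest, then 3, 2 and 4. Within the wildtype group they did not: animal 4 was lowest for both, but animal 3 was highest for Cldn2 and next to lowest for Celsr1.

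Cldn4, the barrier-forming claudin, had nearly the same mean signal in both groups. It read 78.9, 37.0, 67.2 and 69.7 units in transgenic animals 1 to 4, against 61.6, 63.9, 41.6 and 80.4 units in wildtype animals 1 to 4. The groups overlapped over most of their range, and each held 1 low liver, transgenic animal 2 and wildtype animal 3. Cldn4 had a mean of 63.2 ± 18.2 units in the transgenic livers, against 61.9 ± 15.9 units in the wildtype livers (SD, n = 4 each). The log2 difference, transgenic minus wildtype, was 0.01 ± 0.28 (SE), and its sign changed when single livers were left out (-0.16 to 0.25). A difference of the size seen for Cldn2 lies within 2 SE of this value in either direction.

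**Figure D1:**
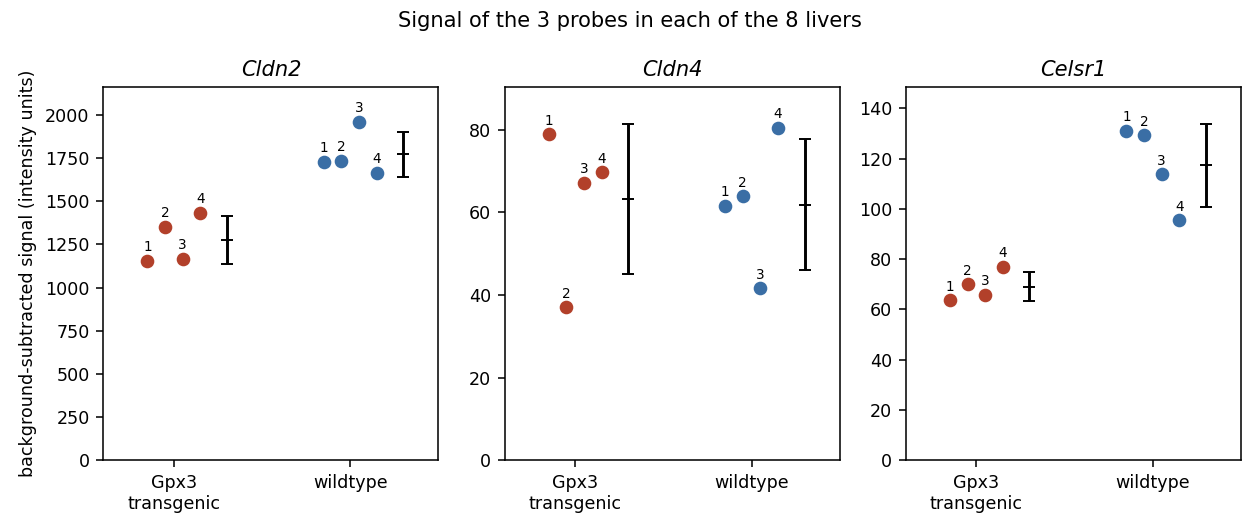
Background-subtracted signal (intensity units, linear axis from 0, a different range in each panel) of the Cldn2, Cldn4 and Celsr1 probes in Gpx3 transgenic (red) and wildtype (blue) livers. Points are livers with their animal number, and bars show mean ± SD (n = 4 each); the groups are separate for Cldn2 and Celsr1 and overlap for Cldn4.

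Of the 3 probes, 2 had groups that did not overlap, both with the transgenic livers lower. Over all 14759 tested probes, groups did not overlap in 3.56%: 1.83% had transgenic livers wholly below wildtype livers, and 1.73% had them wholly above. Because the genes were chosen on this contrast, no share is read from the 2 of 3. All 3 probes passed the filter on dim probes, and none of their 24 readings lay at or below the floor of 16 units that was applied before log2 was taken. No probe of any gene reached an adjusted p under 0.05 in limma (0%), where the smallest adjusted p was 0.055, and 1006 probes had an unadjusted p under 0.05.

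The spread between livers of a group differed among the 3 genes. The pooled SD of log2 signal within groups was 0.13 for Cldn2, 0.17 for Celsr1 and 0.44 for Cldn4. Among the 500 tested probes nearest in mean log2 signal, the median SD was 0.13 beside Cldn2, 0.26 beside Celsr1 and 0.31 beside Cldn4. Cldn2 thus varied like probes of its brightness. Celsr1 had a smaller SD than most of its 500 (12.4% were below it), and Cldn4 a larger one than most (80.6% were below it). Groups separate more readily where the SD is small, and the genes were chosen with these values known. The small SD of Celsr1 may therefore be selected and is not read as a trait of the gene. For the dim Celsr1 and Cldn4 probes the size of a log2 difference depends on how background is treated. After normexp correction with an offset of 50 units, Celsr1 differed by -0.39 and Cldn2 by -0.45 on the log2 scale.

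**Figure D2:**
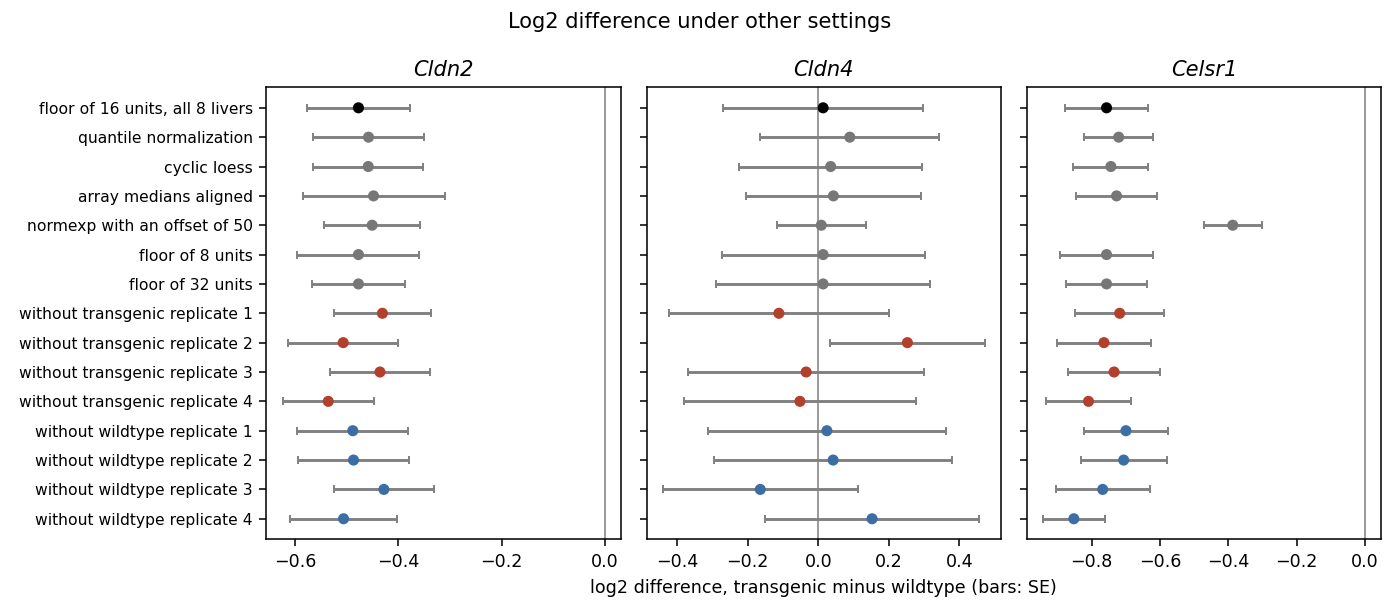
Log2 difference of mean signal (transgenic minus wildtype, bars are SE, each panel with its own axis) of Cldn2, Cldn4 and Celsr1 under the floor of 16 units (black), other scalings, corrections and floors (grey), and without each transgenic (red) or wildtype (blue) liver. Cldn2 stays between -0.54 and -0.43, Celsr1 between -0.85 and -0.39, and Cldn4 lies on both sides of 0.

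The other claudins with a named probe read low in both groups. Cldn14, a claudin known from the inner ear and kidney, had a mean of 49.0 ± 3.39 units in the transgenic livers, against 47.2 ± 14.0 units in the wildtype livers (SD, n = 4 each), with a log2 difference of 0.09. Cldn10 was at or below 16 units in 3 livers of each group, and Cldn17 and Cldn34b2 in all 8. Among other tight junction membrane proteins, F11r, an adhesion molecule also called JAM-A, had a log2 difference of 0.02 ± 0.11 (SE). Marveld3, a relative of occludin, had log2 differences of 0.28 and -0.13 at its 2 probes. Of the 31 claudin and tight junction membrane genes listed, 9 had a named probe and 7 were tested, Cldn2 and Cldn4 included. Of these 7 genes 5 had higher and 2 lower mean log2 signals in transgenic livers, with a median log2 difference of 0.02.

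Both relatives of Celsr1 were near or under the floor. Celsr2 read 0.9, 4.9, 18.8 and 14.8 units in transgenic livers, against 25.9, 19.1, 20.2 and 10.5 units in wildtype livers. The groups overlapped, with a log2 difference of -0.26 ± 0.15 (SE; limma adjusted p = 0.781). Celsr3 was under 16 units in all 8 livers. Prickle1, a cytoplasmic partner in planar polarity, stood the other way from Celsr1. It read 184.5, 179.8, 181.0 and 239.4 units in transgenic livers, against 177.1, 154.6, 147.4 and 141.0 units in wildtype livers. The groups did not overlap, and transgenic animal 4 stood above the rest; the log2 difference of 0.33 ± 0.12 (SE) had an adjusted p of 0.671 in limma. Of 26 planar polarity genes 15 had a named probe and 9 were tested, 5 higher and 4 lower, with a median of 0.05. Vangl1 and Vangl2, core membrane proteins of the pathway, stayed at or below 16 units in all 8 livers, as did Wnt5a and Wnt11, ligands of the pathway.

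Scaffold proteins that anchor tight junction strands to the actin cytoskeleton gave values in both directions. Cgn, the junction plaque protein cingulin, read 72.5, 58.2, 76.8 and 94.0 units in transgenic livers, against 46.6, 60.5, 66.2 and 43.0 units in wildtype livers. Its log2 difference was 0.48 ± 0.19 (SE; limma adjusted p = 0.702), and another Cgn probe gave -0.26. Pard3, a polarity scaffold that positions tight junctions, read 9.5, 16.6, 7.1 and 18.0 units in transgenic livers, against 29.5, 26.6, 13.3 and 35.0 units in wildtype livers. With 2 transgenic and 1 wildtype liver at the floor, its log2 difference was -0.63, and a second probe gave -0.34. Mpp5, which encodes the polarity scaffold PALS1, differed by -0.56 with 3 transgenic livers at the floor. Of the 25 scaffold genes 13 had a named probe and 11 were tested, 6 higher and 5 lower, with a median of 0.02.

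Adherens junctions, desmosomes and gap junctions hold and couple the same cells. Of 14 adherens junction genes 8 were tested, 4 higher and 4 lower, with a median log2 difference of -0.02. Jup, which encodes plakoglobin, differed by 0.16 and the adhesion protein gene Nectin1 by -0.19. Of 10 desmosome genes 3 were tested, all with higher means in transgenic livers and a median of 0.55. Ppl, which encodes the linker periplakin, had a mean of 113 ± 44.5 units in the transgenic livers, against 64.4 ± 14.7 units in the wildtype livers (SD, n = 4 each), with overlapping groups. Dsg2, a desmosomal cadherin, read 227.4 units in the fourth transgenic liver, but 32.6 to 47.4 units in the remaining transgenic livers, against 32.7 to 57.1 units in wildtype animals. Its log2 difference of 0.55, which is the median of the list, turned to -0.06 without that animal. The list median and the count of 3 higher genes therefore rest on that animal. Of 8 gap junction genes 3 were tested, 1 higher and 2 lower, with a median of -0.05. Gjb2, connexin 26, had a mean of 1551 ± 354 units in the transgenic livers, against 1599 ± 106 units in the wildtype livers, and Panx1 was at or below 16 units in 7 of 8.

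Over the 6 lists together, and without Cldn2, Cldn4 and Celsr1, 38 genes were tested of 52 with a named probe and 111 listed. Of these 38 genes 23 had higher and 15 lower mean log2 signals in transgenic livers. Their median log2 difference was 0.04, against -0.02 over all 14759 probes, of which 53.3% were lower. None of the 38 passed in limma, where their smallest adjusted p was 0.663, and 3 had an unadjusted p under 0.05: Cgn and Prickle1 with higher and Pard3 with lower means. That is 7.89% of the 38, beside 6.82% of all tested probes (3.23% higher and 3.59% lower). The lower signals of Cldn2 and Celsr1 thus stood beside junction genes whose share at that p was close to that of the array as a whole.

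**Figure D3:**
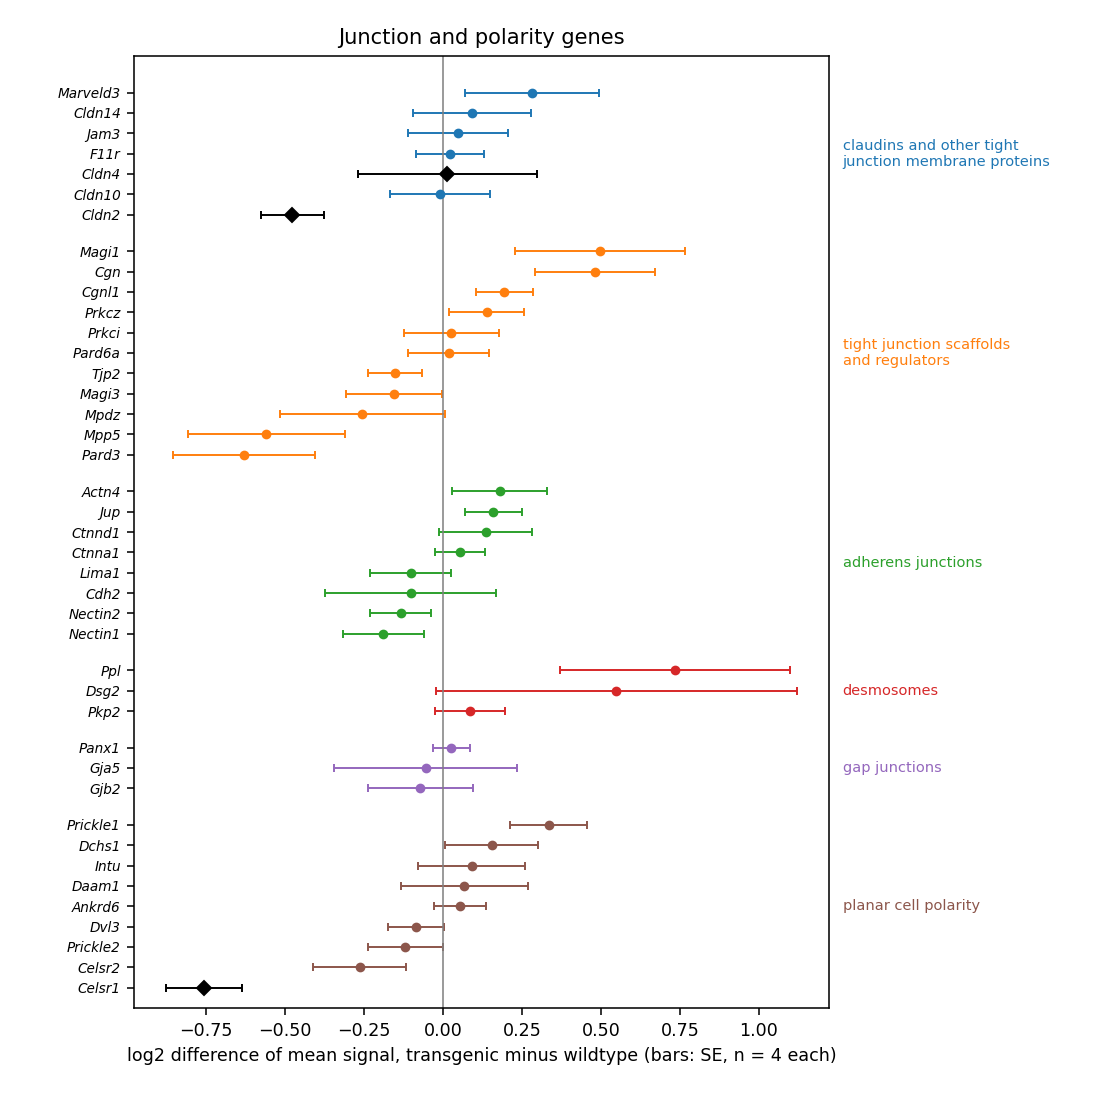
Log2 difference of mean signal (transgenic minus wildtype, bars are SE, n = 4 each) of the 41 tested junction and planar polarity genes, by list. Black diamonds mark Cldn2, Cldn4 and Celsr1; the other 38 genes lie on both sides of 0, and none passed in limma.

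Genes of the hepatocyte's bile pole and of liver zones were set beside the claudins, since these junctions border the canaliculus. All 6 tested canalicular genes, of 15 listed, had lower means in transgenic livers, with a median log2 difference of -0.18, and 0 passed in limma (smallest adjusted p = 0.629). Over all tested probes, 53.3% had lower means. The GTPase gene Rab11a, of apical membrane recycling, had a mean of 29.7 ± 8.07 units in the transgenic livers, against 44.1 ± 5.32 units in the wildtype livers (SD, n = 4 each), a log2 difference of -0.60. Abcc2, the canalicular exporter of conjugated bilirubin, had a mean of 3770 ± 413 units in transgenic livers against 4426 ± 515 units in wildtype livers, with overlapping groups, and Ezr, which links the apical membrane to actin, differed by -0.14. Of 19 pericentral genes 2 were tested, the glutamate transporter Slc1a2 at 0.40 and Nkd1, a Wnt inhibitor, at -0.37. Nkd1 was at or below 16 units in 3 transgenic livers and 1 wildtype liver, so the zone could hardly be read. Of 17 periportal genes 6 were tested, 2 higher and 4 lower, with a median of -0.23. Pck1, the gateway enzyme of gluconeogenesis, differed by 0.67, the lipid droplet enzyme Hsd17b13 by -0.44 and the apolipoprotein Apoa4 by -0.83. At an unadjusted p under 0.05 in limma there were 5 of these 6 genes, 2 higher and 3 lower, and 0 passed after adjustment. Over all tested probes the share at that p was 6.82%. The lists of this paragraph were written with earlier results of these data known, so no enrichment is read from the 5 of 6.

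Transcription factors linked to claudin expression had 5 tested members of 19, all with higher means in transgenic livers, a median log2 difference of 0.20 and no call in limma. Of all 14759 tested probes, 6897 had higher means. This list too was written with earlier results of these data known. Stat3, the factor that acts downstream of interleukin 6, had a mean of 1733 ± 174 units in the transgenic livers, against 1443 ± 79.1 units in the wildtype livers (SD, n = 4 each), with overlapping groups. Tcf7l2, a Wnt effector, differed by 0.20, and Klf5, an epithelial factor, was at or below 16 units in 2 transgenic and 3 wildtype livers.

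Markers of the cells in the samples were read beside the 3 genes. In whole liver, fewer cells of a type and less RNA per cell cannot be told apart. Both hepatocyte markers with a named probe were bright and alike in the groups: Apoa1 had a mean of 35860 ± 1489 units in the transgenic livers, against 35430 ± 1134 units in the wildtype livers, and Serpina1a one of 9618 ± 1161 units in transgenic against 9959 ± 888 units in wildtype livers. Bile duct markers, Cldn4 among them, were weak. Of 11 listed 4 had a named probe and 3 were tested, and their median log2 difference was -0.12, with 1 gene higher, 2 lower and no call. Krt19, a defining keratin of bile ducts, was at or below 16 units in all 8 livers, and the list summed to 252 to 335 units in transgenic and 283 to 324 units in wildtype livers. Onecut1, a factor of bile duct and hepatocyte development, had a mean of 39.0 ± 7.41 units in the transgenic livers, against 56.3 ± 12.9 units in the wildtype livers, a log2 difference of -0.52. Spp1, the osteopontin gene, differed by -0.12.

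The 3 tested endothelial markers, of 7 listed, had lower means in transgenic livers, as did 53.3% of all tested probes. The median log2 difference of the 3 was -0.48, and 0 passed in limma (smallest adjusted p = 0.697). The list was written with earlier results of these data known, so these 3 genes do not stand for endothelial cells as a whole. Their summed signal was 216 to 370 units in transgenic and 336 to 477 units in wildtype livers. Emcn had a mean of 103 ± 26.3 units in the transgenic livers, against 141 ± 19.5 units in the wildtype livers, Egfl7 differed by -0.31 and Pecam1 by -1.04 ± 0.57 (SE). The Pecam1 value was -0.63 without transgenic animal 1 and -0.38 after normexp. Lrat, the enzyme of vitamin A storage in stellate cells, read 242.0, 323.3, 227.5 and 315.7 units in transgenic livers, against 363.0, 384.4, 368.6 and 395.4 units in wildtype livers. These groups did not overlap, and the log2 difference of -0.46 had an adjusted p of 0.592 in limma. Reln, another stellate cell gene, differed by -0.03, and of 6 stellate markers 3 were tested (1 higher, 2 lower, median -0.03), with Col1a2 at or below 16 units in 7 of 8 livers. The macrophage gene C1qa differed by -0.29, or by -0.15 without wildtype animal 4, and Cd68 and the T cell gene Cd3e were at or below 16 units in 7 and 6 of 8 livers. Of 6 macrophage markers 2 and of 4 lymphocyte markers 1 were tested, with no call. The part of other cell types in the lower Cldn2 and Celsr1 signals was not tested.

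**Figure D4:**
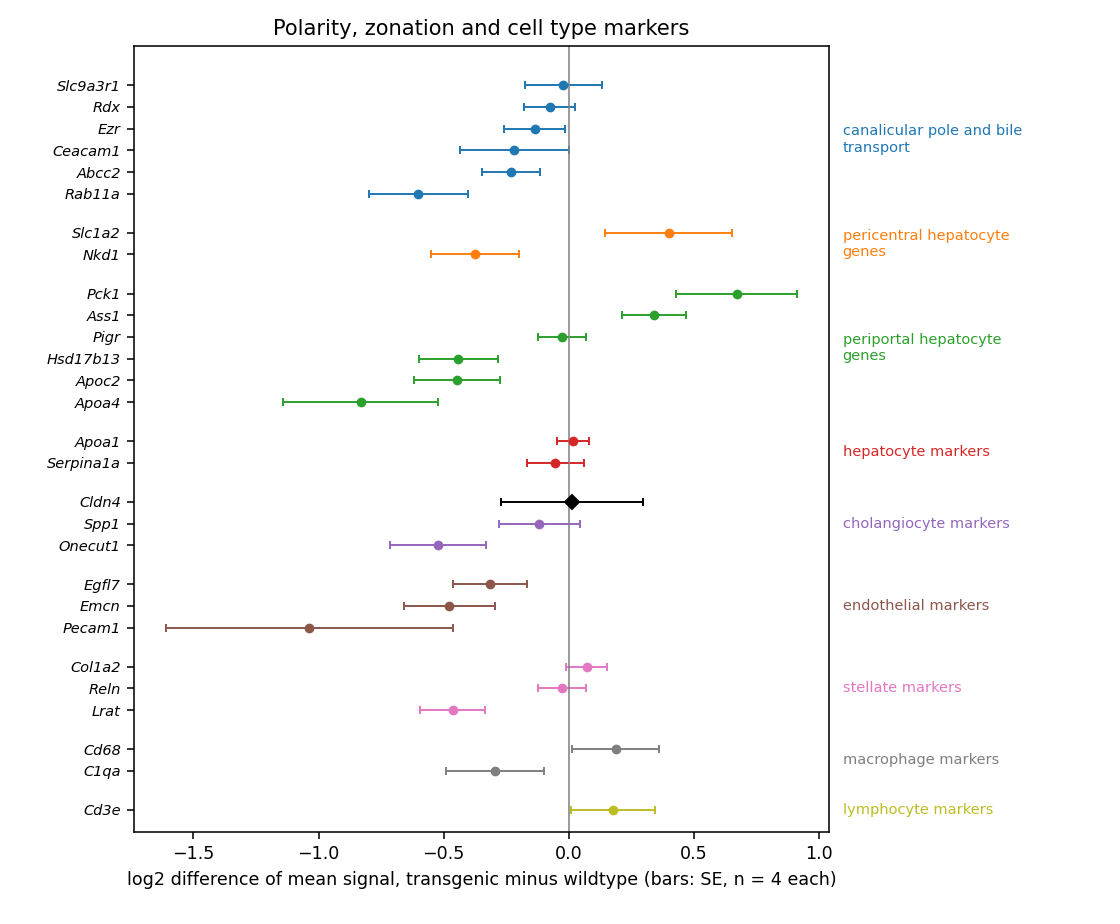
Log2 difference of mean signal (transgenic minus wildtype, bars are SE, n = 4 each) of tested canalicular, zonation and cell type marker genes, with Cldn4 as a black diamond among bile duct markers. The 6 canalicular and 3 endothelial genes lie below 0, hepatocyte markers lie near 0, and none passed in limma.

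The genes whose pattern over the 8 livers was most like each of the 3 were found by Pearson's r of log2 signal, among 3529 named probes above 16 units in all 8 livers. The highest of so many values is high by selection, and r is given only as the measure of likeness. For Cldn2 and Celsr1 it also holds the gap between groups for which they were chosen, so r of the deviations from group means is given too. For Cldn2 the nearest were Mmrn2, an endothelial matrix protein (r = 0.96, and 0.86 for deviations), Ppm1m, a protein phosphatase (0.96 and 0.75), Dnase2a, a lysosomal nuclease (0.94 and 0.73), and Acp2, a lysosomal phosphatase (0.93 and 0.69). Mmrn2 read 245.7, 282.2, 231.9 and 276.0 units in transgenic livers, against 323.1, 306.1, 328.2 and 307.5 units in wildtype livers. Its groups did not overlap, with wildtype animal 3 highest as for Cldn2. For Celsr1 the nearest were Sumo3, a ubiquitin-like modifier (0.94 and 0.68), Srp9, a subunit of the signal recognition particle (0.94 and 0.78), Ppm1m (0.94 and 0.57) and Tax1bp3, a PDZ protein (0.92 and 0.91). Tax1bp3 read 719.3, 764.5, 782.7 and 853.2 units in transgenic livers, against 955.8, 934.0, 919.3 and 805.8 units in wildtype livers. Its groups overlapped by 1 liver on each side, and its wildtype animals ranked as for Celsr1.

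Among the genes nearest to Cldn4 were Ccdc47, of the endoplasmic reticulum (0.94 for both measures), Rsrc2 (0.92 for both) and Pigz, a mannosyltransferase of membrane anchors (0.91 and 0.92). The transgenic and wildtype groups overlapped for each of these 3 genes, as they did for Cldn4.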

How the data were processed

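Liver RNA of 8 mice was measured on 1-colour Illumina bead arrays with biotin-labelled cRNA, per the labels. BeadStudio 1.5.1.3 is named in the submitters' processing notes. The deposited values are linear-scale intensities, 1 per probe and array. Some lie below 0, so the authors had already subtracted background. Any scaling between arrays is not stated. Another table has 64 value columns named by array position, which no label ties to an animal, and was not used. Whether the animals share litters or batches is not stated. A limma p-value sets the difference between groups against the variation within them, which is estimated partly from all tested probes. It covers only these 8 animals, and that variation may be technical.

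Intensities under 16 units were set to 16 and log2 was taken. Probes with a mean log2 signal above the lower quartile (4) were tested, 14759 of 24048. Groups follow the strain in the labels, and animals are numbered in order of deposition. limma 3.58.1 in R 4.3.3 (lmFit, eBayes, two-sided, transgenic minus wildtype, no covariates) was fitted over all tested probes with Benjamini-Hochberg adjustment at 0.05, and was tested on simulated data. SEs of log2 differences come from that fit, and means and SDs from the intensities. Of 24048 probes, 9523 had identifiers with a number after scl0 or scl00. Those numbers were matched to a RefSeq table of GRCm38.p6 (8884 of 9523 matched, 93.3%). In all, 15164 probes had no name, so a gene without a named probe may still have a probe on the array. The number in scl12614.1.1_13-S has no such prefix and was not read as Celsr1.

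The members, the lists and the tests were chosen with earlier results of these data known. The lists cover junctions, planar polarity, the bile pole, liver zones, transcription factors and cell types. Where several probes carried one gene, the brightest stood for it. Named genes are the 3 genes, their families, the tested members of smallest p in each list (3 where one had an unadjusted p under 0.05, otherwise 2, within a limit of 4; numbers chosen after values were seen) and the 4 most alike in pattern, of which 1 is not reported here. F11r, Vangl1, Vangl2, Wnt5a, Wnt11, Krt19 and Reln were named after their values were seen. Alternatives were other scalings, background correction, floors, filters, a variance model and leaving out each liver.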

Additional observations from a re-analysis of the deposited data

Results flagged for a closer look

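Among 112 groups of 4 livers looked at for the genes named above, 6 held a liver whose gap to its nearest neighbour exceeded Dixon's 95% critical share of the group's range. Chance gives about 1 such group in 20, so 6 of 112 (5.36%) is close to that share. None of the 6 was a value of Cldn2, Cldn4 or Celsr1. Transgenic animal 4 was apart at Dsg2, with 227.4 units against 32.6 to 47.4 in the other transgenic animals, at Prickle1, with 239.4 against 179.8 to 184.5, at Emcn, with 141.7 against 83.9 to 93.2, and at Cd3e, with 26.4 against 5.3 to 8.5. Transgenic animal 1 was apart at Col1a2, with 19.5 units against -2.2 to 1.1. Wildtype animal 4 was apart at Nkd1, with -8.5 units against 22.4 to 28.4. Without transgenic animal 4, the log2 difference, transgenic minus wildtype, was -0.54 for Cldn2, -0.81 for Celsr1 and -0.05 for Cldn4.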

How the results depend on the processing

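Cldn2 and Celsr1 kept lower signals in transgenic livers under each alternative run. With single livers left out this direction was fixed in advance, because the groups did not overlap for either gene. Floors of 8 and 32 units lay below every reading of both genes and left their differences unchanged. The log2 difference of Cldn2 lay between -0.48 and -0.45 under other scalings, corrections and floors, and between -0.54 and -0.43 with single livers left out. That of Celsr1 lay between -0.85 and -0.70 with single livers left out and moved to -0.39 after normexp with an offset of 50, an offset that shrinks differences at dim probes by construction. Other dim list genes shrank under normexp too. Among them, Rab11a moved to -0.17, Onecut1 to -0.19, Pard3 to -0.18, Cgn to 0.20 and Ppl from 0.73 to 0.39. Cldn4 lay between 0.01 and 0.09 under other scalings, corrections and floors, and between -0.16 and 0.25 with single livers left out. Over all probes 0 passed; 1 passed after quantile normalization, cyclic loess, alignment of array medians or a floor of 32 units, 2 after normexp or with a trended robust variance, and 0 to 1 without single livers. The cause of these passes was not tested. Of the 38 other junction genes, each read at its brightest probe, 0 passed under any alternative. Those with an unadjusted p under 0.05 numbered 3, but 5 with a floor of 8 units, 5 with the trended robust variance, 1 of 14 under the strictest filter on mean signal, 1 without transgenic replicate 3 and 5 without transgenic replicate 4. Of 32 named list genes 7 changed direction somewhere: Nkd1 to 0.0059 after normexp and Reln to 0.0024 with array medians aligned. With single livers left out, Cldn14 lay between -0.0041 and 0.28, Dsg2 between -0.062 and 0.87, Gjb2 between -0.19 and 0.079, Serpina1a between -0.11 and 0.034, Apoa1 between -0.0027 and 0.046, and Reln between -0.10 and 0.033. Single livers also moved uncalled values by over 1.5 times, among them Celsr2 to -0.14 without wildtype replicate 1, Mpp5 to -0.32 without wildtype replicate 3, Slc1a2 to 0.25 without wildtype replicate 4, Pecam1 to -0.63 without transgenic replicate 1 and C1qa to -0.15 without wildtype replicate 4. The median of all tested probes stayed between -0.02 and 0.01 under the scalings tried. No paired analysis was run, because the labels do not state that any transgenic animal was matched to a wildtype animal. Signals near 16 units have no reliable order, which limits Celsr2, Cldn10, Pard3, Mpp5 and Nkd1.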
